A study of Mus musculus with 15 samples.

Results

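The transcripts of the Notch receptors, their ligands and their closest partners were followed through granule neuron precursor development and in medulloblastoma. The members were the genes listed by symbol for this set and found in the gene count table, 10 of 21889 genes. They were the receptors Notch1, Notch2 and Notch3, the ligands Dll1, Dll3, Jag1 and Jag2, the neuronal transmembrane ligand Dner, the nuclear effector Rbpj and the inhibitor Numb. Poly(A) RNA of mouse cerebellar cells was sequenced in 15 libraries that form 5 groups of 3. Granule neuron precursors are the cells that divide in the outer layer of the developing cerebellum and become granule neurons. Cells labelled as such precursors were taken at the embryonic age E15.5 from mice with the genotype label Math1-GFP. Cells with the same label were taken at postnatal days 1, 7 and 14 (P1, P7 and P14) from wild type (WT) mice. Medulloblastoma cells (MB), from a tumour of the cerebellum, were labelled Ptch1 heterozygous and were given no age. All groups shared purification on a Percoll gradient, a density separation that leaves some other cells in the fraction, and no other allele or agent is named for any group. Math1-GFP is a reporter driven by regulatory sequence of Math1 (Atoh1), a gene of the granule lineage. Whether the E15.5 cells were also sorted on it is not given in the sources used here, and in every comparison with E15.5 age and genotype cannot be told apart. In every comparison with MB, tumour state and genotype cannot be told apart, nor can age, which is not given for MB. Whether replicates came from separate animals or tumours is not stated either, so the tests measure the spread between these libraries.

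Notch receptors are cell surface proteins that are cut when a ligand on a neighbouring cell binds them. The cut fragment enters the nucleus, joins the DNA-binding protein Rbpj and switches on targets such as the Hes and Hey repressors, while Numb lowers the amount of receptor at the membrane. In the developing cerebellum Notch2 is known for keeping granule neuron precursors dividing, Jag1 is a ligand used there, and Dner is best known from Purkinje cells, where it acts on Bergmann glia. Notch3 is also a receptor of the mural cells of blood vessels, and Notch1 of the endothelium.

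Promoters of 6 members are shown because the receptors moved together after E15.5 while Dll1, Dll3 and Jag2 went separate ways. Each line is the RefSeq window from 250 bases before to 50 after a transcription start, 300 bases in GRCm38.p6, written 5′ to 3′ on the strand of the gene. Of several starts, the one nearest to the start of a counted transcript was taken. It lay 0 bases from that start for Notch1 and Notch2, 38 for Notch3, 153 for Dll1, 281 for Jag2 and 453 for Dll3. The windows of Jag2 and Dll3 therefore do not hold the start of the counted transcript, and that of Dll1 may not. Capitals mark the GC box GGGCGG, the E-box CAGCTG and the Rbpj core TGGGAA, each searched on both strands. The windows are chr2:26503773-26504072 on the minus strand for Notch1, chr3:98013288-98013587 on the plus strand for Notch2, chr17:32166841-32167140 on the minus strand for Notch3, chr17:15375774-15376073 on the minus strand for Dll1, chr7:28301736-28302035 on the minus strand for Dll3 and chr12:112929446-112929745 on the minus strand for Jag2.
Notch1: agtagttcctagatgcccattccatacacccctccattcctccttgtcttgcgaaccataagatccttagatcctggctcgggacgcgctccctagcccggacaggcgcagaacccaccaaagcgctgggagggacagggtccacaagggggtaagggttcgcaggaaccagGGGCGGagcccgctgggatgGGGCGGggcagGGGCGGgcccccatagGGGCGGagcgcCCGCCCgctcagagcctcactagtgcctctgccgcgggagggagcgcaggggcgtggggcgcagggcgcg
Notch2: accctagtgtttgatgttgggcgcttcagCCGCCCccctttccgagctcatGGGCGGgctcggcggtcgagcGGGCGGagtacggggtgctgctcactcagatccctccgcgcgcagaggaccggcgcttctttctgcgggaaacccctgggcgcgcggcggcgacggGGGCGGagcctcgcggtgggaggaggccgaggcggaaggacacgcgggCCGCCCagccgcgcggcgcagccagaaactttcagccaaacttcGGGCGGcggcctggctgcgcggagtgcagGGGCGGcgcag
Notch3: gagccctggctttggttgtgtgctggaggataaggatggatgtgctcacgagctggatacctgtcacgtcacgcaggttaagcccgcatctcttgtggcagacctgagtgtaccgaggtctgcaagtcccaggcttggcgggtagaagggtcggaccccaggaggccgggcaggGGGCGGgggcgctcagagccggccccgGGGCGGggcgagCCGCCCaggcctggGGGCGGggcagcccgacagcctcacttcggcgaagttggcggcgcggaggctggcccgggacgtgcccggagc
Dll1: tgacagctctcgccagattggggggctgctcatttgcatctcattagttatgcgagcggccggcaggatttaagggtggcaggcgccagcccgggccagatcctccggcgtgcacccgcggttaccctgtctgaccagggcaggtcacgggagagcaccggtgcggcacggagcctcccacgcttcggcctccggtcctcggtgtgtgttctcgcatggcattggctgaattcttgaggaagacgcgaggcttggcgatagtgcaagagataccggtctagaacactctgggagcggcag
Dll3: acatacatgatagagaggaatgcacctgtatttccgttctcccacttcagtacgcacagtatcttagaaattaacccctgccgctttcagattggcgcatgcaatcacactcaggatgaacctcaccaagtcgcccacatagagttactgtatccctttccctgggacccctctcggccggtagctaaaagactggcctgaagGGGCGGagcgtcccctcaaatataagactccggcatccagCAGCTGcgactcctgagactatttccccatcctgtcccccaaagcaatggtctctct
Jag2: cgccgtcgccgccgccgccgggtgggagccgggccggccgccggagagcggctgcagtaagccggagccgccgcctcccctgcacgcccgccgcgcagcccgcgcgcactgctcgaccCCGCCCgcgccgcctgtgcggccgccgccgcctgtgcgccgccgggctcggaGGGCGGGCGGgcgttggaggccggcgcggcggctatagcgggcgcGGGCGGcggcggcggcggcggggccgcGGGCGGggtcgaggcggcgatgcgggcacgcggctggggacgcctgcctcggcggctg

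The GC box was found 5 times in the Notch1 window, 7 times in that of Notch2, 4 times in that of Notch3, 5 times in that of Jag2, with 1 pair of overlapping matches, and 1 time in that of Dll3. It was not found in the Dll1 window. Of all 10 members, matched by symbol, 7 held the GC box, against 35.7% of the 32851 promoter windows of the RefSeq table. The E-box was found in 2 members, Dll3 and Jag1, against 16.3% of all windows. The Rbpj core was found in 1 member, Rbpj itself, against 25.6%. These are matches of letters in a window and do not show binding.

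The fraction held transcripts of the granule lineage and of other cells. Levels are in CPM, counts scaled to the total counted in genes of each library. The summed level of 10 granule lineage markers lay between 2716 and 6183 CPM in every library, but its makeup changed with age. Atoh1 fell from a group mean of 129 CPM at E15.5 to 30.6 at P7 and 11.9 at P14. Gabra6, a marker of mature granule neurons, was at 0 in all E15.5 libraries and had 1.12 to 102 CPM at P1. Its means were 7.43 CPM at P7 and 175 at P14. The P14 cells, though labelled as precursors, thus held more of this mature marker. The summed level of 8 endothelial markers was 12.2 to 35.7 CPM at E15.5 and 20.2 to 35.6 in MB, against 423 to 636 at P1, 326 to 386 at P7 and 784 to 815 at P14. The 10 mural cell and fibroblast markers followed the same order, with 23.6 to 44.4 CPM at E15.5, 60.1 to 77.3 in MB and 374 to 1047 after birth. No endothelial, mural or astroglial marker was at 0 in any library. In bulk RNA, fewer cells of a type and less RNA per cell cannot be told apart. Libraries held 12597472 to 43443132 counts in genes, and the library labelled P1 replicate 3 stood apart from the other P1 libraries, with a summed oligodendrocyte marker level of 4300 CPM against 642 to 1084. The gene Tsnax was counted differently in 6 libraries than in the other 9. The 6 were MB replicate 1, the 3 of P7 and 2 of E15.5 (replicates 1 and 3). The libraries were split into counting sets by this gene alone, and how many other genes differ was not measured. P7 thus lay wholly in one of these counting sets, P1 and P14 wholly in the other, so the counting set and the age cannot be told apart in P7 against P1 or in P14 against P7. For 9 members the gene table held 93.9% to 100% of the count of the transcript table in every library. For Rbpj it held 27.2% to 52.6%, and pseudogene copies of Rbpj exist, so the level of Rbpj is uncertain.

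**Figure D1:**
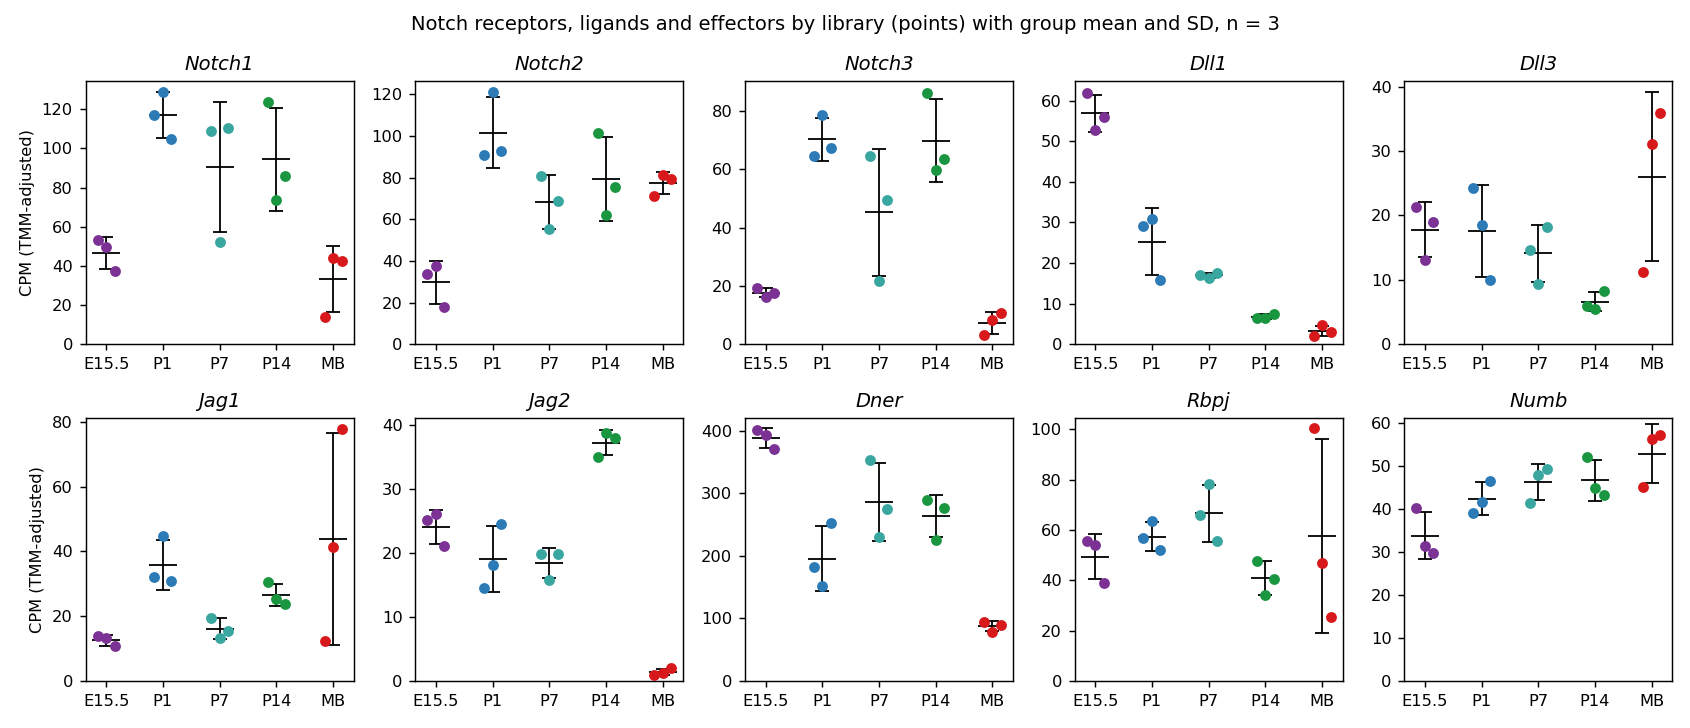
Level of each member in every library, in CPM on a linear axis from 0, by group, with the group mean and SD (n = 3). Notch1, Notch2 and Notch3 sit higher at P1 than at E15.5, Dll1 steps down from E15.5 to P14, and Jag2 lies between 0.912 and 1.96 CPM in MB against at least 14.5 CPM in every other library.

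All 3 receptors rose between E15.5 and P1. Notch1 (ENSMUSG00000026923), on chromosome 2 from 26313423 to 26359342 in mm9 with 34 exons, had 53.0, 49.4 and 37.3 CPM in E15.5 replicates 1 to 3 and 117, 129 and 105 CPM at P1. The groups did not overlap, and the log2 fold change was 1.33 (SE 0.37, n = 3 per group), with a false discovery rate (FDR, the adjusted p of edgeR's quasi-likelihood test) of 0.00855. Notch2 (ENSMUSG00000027878), on chromosome 3 from 97817461 to 97954290 with 34 exons, had 33.8, 37.5 and 18.0 CPM at E15.5 and 90.9, 121 and 92.7 CPM at P1. E15.5 replicate 3 was the lowest, and every P1 library was above every E15.5 library. The log2 fold change of Notch2 was 1.78 (SE 0.26, edgeR FDR 8.57e-05). Notch3 (ENSMUSG00000038146), on chromosome 17 from 32257765 to 32303825 with 33 exons, had 19.3, 16.2 and 17.6 CPM at E15.5 and 64.7, 78.8 and 67.4 CPM at P1. Its E15.5 libraries lay close together, and its log2 fold change of 1.99 (SE 0.39, edgeR FDR 8.17e-04) was the largest rise among the members in this comparison. All 8 endothelial, all 10 mural and all 10 astroglial markers were also called higher at P1. Their median log2 fold changes were 4.69, 4.21 and 3.82. So were all 10 oligodendrocyte markers (4.28), 4 of 5 choroid plexus markers (5.16) and 8 of 9 microglial markers (2.82). Of 7 GABAergic interneuron markers 1 was called higher and 5 lower, of 7 Purkinje cell markers 2 and 1. Of 10 granule lineage markers 2 were called higher and 1 lower. The part of these cells in the receptor rise was not tested.

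After P1 no receptor was called in any comparison between ages. Notch1 had 109, 52.0 and 111 CPM at P7 and 124, 73.5 and 86.0 CPM at P14. Notch2 had 81.0, 55.4 and 68.7 CPM at P7 and 101, 61.8 and 75.4 CPM at P14. Notch3 had 64.7, 21.8 and 49.5 CPM at P7 and 86.2, 59.9 and 63.6 CPM at P14. P7 replicate 2 was the lowest P7 library for all 3 receptors, and for Notch3 it came close to the E15.5 level. Ranked by group mean, P1, P14 and P7 overlapped with their neighbours for each receptor. Only E15.5 lay apart from its postnatal neighbour, in Notch2 and Notch3.

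Among the ligands Dll1 fell step by step, while Jag1 and Jag2 rose at different ages. Dll1 (ENSMUSG00000014773), on chromosome 17 from 15504318 to 15512940 with 11 exons, encodes a Delta ligand of progenitors and newborn neurons. It had 61.8, 52.7 and 56.0 CPM at E15.5, then 29.1, 30.7 and 15.7 CPM at P1, 17.2, 16.4 and 17.5 CPM at P7, and 6.34, 6.42 and 7.52 CPM at P14. Only P1 and P7 overlapped, through P1 replicate 3. The log2 fold change of Dll1 was -1.17 (SE 0.28, edgeR FDR 0.00297) at P1 against E15.5, -0.57 (FDR 0.266) at P7 against P1, -1.33 (SE 0.28, FDR 0.0129) at P14 against P7 and -1.90 (SE 0.28, FDR 0.00197) at P14 against P1. The step from P7 to P14 was no longer called without P7 replicate 2 (-1.36), P14 replicate 1 (-1.29) or P14 replicate 2 (-1.30), while P14 against P1 was called under every alternative run. The summed level of 7 GABAergic interneuron markers was 506 to 614 CPM at E15.5, 249 to 358 at P1, 287 to 401 at P7 and 130 to 192 at P14. Atoh1, of the granule lineage, had group means of 129, 47.7, 30.6 and 11.9 CPM from E15.5 to P14, and 280 CPM in MB. The part of either cell type in the fall of Dll1 was not tested.

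Dll3 (ENSMUSG00000003436), on chromosome 7 from 29078572 to 29087257 with 9 exons, encodes a Delta family member that acts inside the cell on Notch signalling and does not activate receptors in neighbours. It had 21.3, 13.03 and 19.0 CPM at E15.5, 24.2, 18.6 and 9.95 CPM at P1, 14.7, 9.38 and 18.2 CPM at P7, and 6.001, 5.55 and 8.32 CPM at P14. Every P14 library was below every earlier one, and P14 against P1 gave a log2 fold change of -1.41 (SE 0.42, edgeR FDR 0.0475). That call ended without any single P1 or P14 library other than P1 replicate 3, with values from -1.60 to -1.11.

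Jag1 (ENSMUSG00000027276), on chromosome 2 from 136907192 to 136942380 with 26 exons, encodes a Jagged ligand. It had 13.8, 13.4 and 10.6 CPM at E15.5, 32.0, 44.8 and 30.7 CPM at P1, 19.6, 13.2 and 15.49 CPM at P7, and 30.5, 25.2 and 23.9 CPM at P14. P1 was above the other ages without overlap, and P7 overlapped with E15.5. The rise at P1 against E15.5 was 1.51 on the log2 scale (SE 0.44, edgeR FDR 0.0108), and it was not called without E15.5 replicate 3 (1.35, FDR 0.0546). P7 against P1 gave -1.16 (FDR 0.151) and was not called. Endothelial, mural, astroglial, oligodendrocyte, choroid plexus and microglial markers were also called higher at P1 against E15.5, as given for the receptors. The part of these cells in the rise of Jag1 was not tested.

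Jag2 (ENSMUSG00000002799), on chromosome 12 from 114146801 to 114167706 with 26 exons, encodes the second Jagged ligand. It had 25.2, 26.1 and 21.1 CPM at E15.5, 14.5, 18.1 and 24.6 CPM at P1, 19.9, 15.8 and 19.8 CPM at P7, and 35.0, 38.8 and 38.0 CPM at P14. The P14 libraries were above all the others, and the P1 libraries overlapped with those of E15.5 and of P7. Jag2 rose by 1.01 on the log2 scale (SE 0.25, edgeR FDR 0.0225) at P14 against P7 and by 0.97 (SE 0.25, FDR 0.0293) at P14 against P1. Both calls depended on single libraries. The former ended without P7 replicate 2 (0.91) or any P14 library (0.98 to 1.05), and the latter without any P1 or P14 library other than P1 replicate 3 (0.80 to 1.01). P14 was compared with P7 and with P1 using the same P14 libraries. The endothelial markers had a median log2 fold change of 1.04 at P14 against P7 and 0.44 at P14 against P1. Their part in the rise of Jag2 was not tested.

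Dner was the most abundant member per length and had its highest level before birth. Dner (ENSMUSG00000036766), on chromosome 1 from 84366416 to 84692796 with 13 exons, had 402, 393 and 371 CPM at E15.5, 182, 152 and 253 CPM at P1, 354, 231 and 275 CPM at P7, and 289, 225 and 277 CPM at P14. The E15.5 libraries were above all others, and the 3 postnatal ages overlapped. Dner fell by 0.99 on the log2 scale at P1 against E15.5 (SE 0.20, edgeR FDR 0.00122). P7 against P1 gave 0.55 (FDR 0.149), and it was called, at 0.78 (FDR 0.0401), only without P1 replicate 3 among the alternatives run. In CPM per kilobase of exon, a level scaled to length, Dner had 107 ± 4.42 (SD, n = 3) at E15.5, against 15.9 ± 1.29 for Dll1, the highest canonical ligand or receptor among the members at that age. The summed level of 7 Purkinje cell markers, a cell type known for Dner, was 151 to 243 CPM at E15.5, 193 to 317 at P1, 231 to 813 at P7 and 180 to 344 at P14, and its part in the level of Dner was not tested.

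The nuclear effector Rbpj and the inhibitor Numb were not called between any ages in the fit to all libraries. Rbpj (ENSMUSG00000039191), on chromosome 5 from 53947018 to 54048684 with up to 11 exons, ranged from 34.1 to 78.2 CPM over the 12 libraries of the 4 ages. Its P14 libraries, at 47.6, 34.1 and 40.6 CPM, lay below all P1 libraries (52.0 to 63.5 CPM) and all P7 libraries (55.7 to 78.2 CPM), and the E15.5 libraries (39.0 to 55.4 CPM) overlapped with P14 and P1. The log2 fold change of Rbpj was called when only the groups compared were fitted, at -0.71 (edgeR FDR 0.0191) for P14 against P7 and -0.50 (FDR 0.0416) for P14 against P1. Numb (ENSMUSG00000021224), on chromosome 12 from 85134984 to 85262884 with 11 exons, ranged from 29.8 to 52.1 CPM over the same libraries. Numb had the smallest spread of the members over all libraries, with a root mean square deviation of 0.26 from its own mean on the log2 scale, against 1.70 for Jag2. In a single test for any difference among the 4 ages the other 8 members were called, where 55.7% of all 15259 genes were called, with edgeR FDRs of 0.305 for Rbpj and 0.0892 for Numb. DESeq2 called both in that test (0.0122 and 0.0362), the fit of only the 4 ages called Rbpj (0.0252), and upper-quartile scaling called Numb (0.0454). Of the 8, the calls of Notch1, Dll3 and Jag1 ended in several fits that left out 1 library. Fits that left out 1 library of an age called 5 to 8 members and 7248 to 8518 of all genes.

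The counts of members called were read against those of all genes tested. Of the 10 members, 6 were called at P1 against E15.5, 4 higher and 2 lower, where 46.3% of all genes were called, 25.4% higher and 20.9% lower. That comparison changed a large part of all genes, so the number of members called does not set them apart. Within 1 counting set, where E15.5 replicate 2 stood alone for its age and was assumed to vary like the other libraries, the same 6 were called. At P7 against P1 edgeR called 0 members, with 3 at an unadjusted p under 0.05 and 0 by DESeq2, against 3.15% of all genes called by edgeR, 1.40% higher and 1.74% lower. At P14 against P7 it called 2, Dll1 lower and Jag2 higher, against 10.3% of all genes, 5.81% higher and 4.51% lower. At P14 against P1 it called 3, Dll1 and Dll3 lower and Jag2 higher, against 8.94%, 3.63% higher and 5.31% lower. The count at P14 against P7 was 5 when only those groups were fitted, with Dll3, Jag1 and Rbpj added, where 25.9% of all genes tested were called in that same fit, and 0 to 2 when 1 library was left out. At P14 against P1 it was 1 to 4 when 1 library was left out. Over all genes, fits without 1 library called 125 to 1077 at P14 against P7 and 154 to 2714 at P14 against P1. The median log2 fold change of the members was 0.27 at P1 against E15.5, where that of all genes was 0.03, and -0.33 at P14 against P1, where that of all genes was 0.01.

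**Figure D2:**
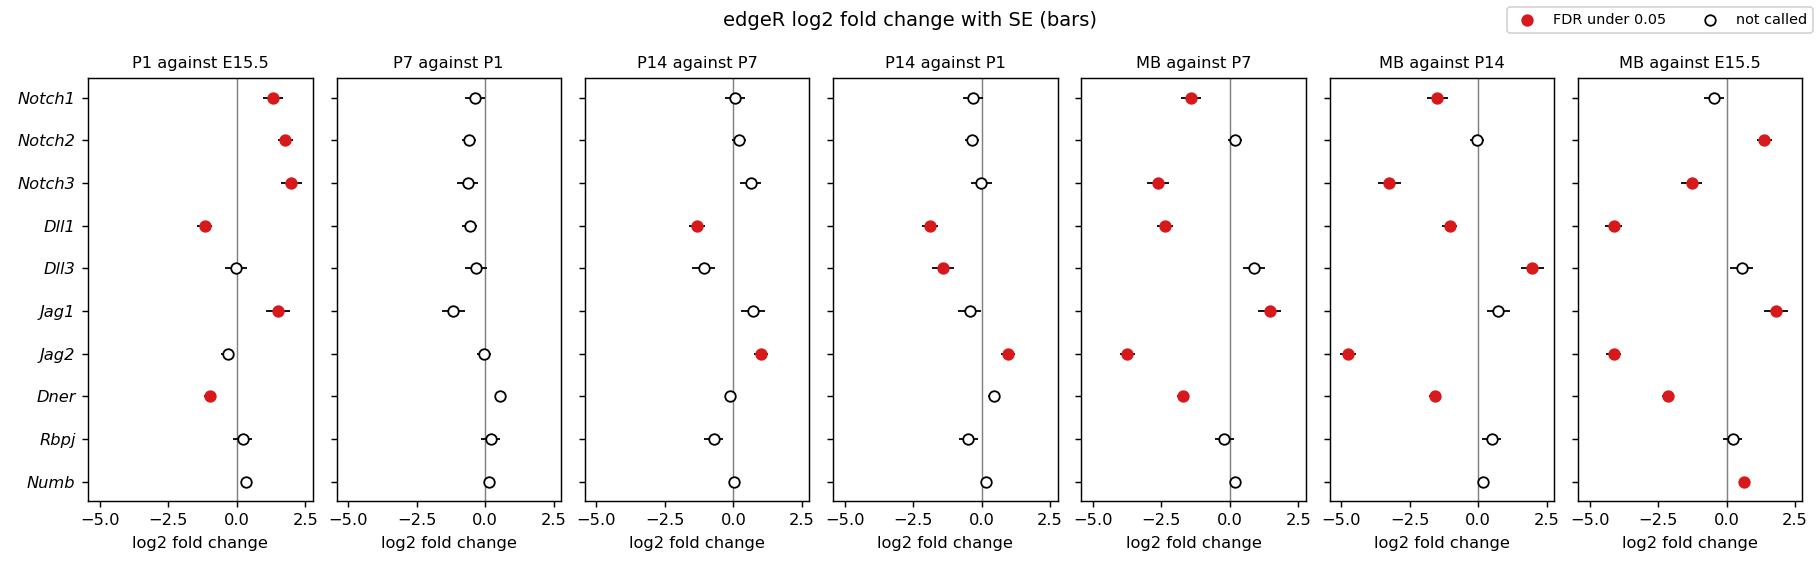
Log2 fold change of each member in each of 7 comparisons, with its SE, from edgeR's quasi-likelihood fit. Filled points passed an FDR of 0.05; Jag2 lies furthest from 0, at -4.75 in MB against P14, and P7 against P1 has no filled point.

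In medulloblastoma Jag2, Notch3, Dll1, Notch1 and Dner were lower than at P7 and P14. Jag1 was called higher than at P7 and E15.5, and Dll3 higher than at P14. Of the 10 members, 6 were called in MB against P7, 1 higher and 5 lower, where 34.5% of all genes were called, 13.7% higher and 20.7% lower. In MB against P14 also 6 were called, 1 higher and 5 lower, where 50.0% of all genes were, 22.9% higher and 27.2% lower. The members' median log2 fold change was -0.82 against P7 and -0.54 against P14, and that of all genes was 0.02 and 0.01. MB against E15.5 was added after the values were seen, since those groups share the lowest endothelial marker levels. There 7 were called, 3 higher and 4 lower, where 50.1% of all genes were, 26.0% higher and 24.2% lower. All comparisons with MB share the 3 MB libraries. Fits within 1 counting set left MB replicate 1 alone against P7, and E15.5 replicate 2 alone against MB replicates 2 and 3, with the lone library assumed to vary like those of the other groups. MB replicate 1 stood apart from the other MB libraries, with a summed microglial marker level of 442 CPM against 149 to 182, 44.6% of records with several alignments against 30.7% to 32.0%, and 39.5% of records in genes against 47.6% to 49.0%. The part of these differences in the results below was not tested.

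Jag2 showed the largest difference of any member. It had 0.912, 1.27 and 1.96 CPM in the MB libraries, from 124 reads in all, and the lowest library of any age had 14.5 CPM. The log2 fold change of Jag2 was -3.74 (SE 0.28, edgeR FDR 1.73e-07) against P7, -4.75 (SE 0.30, FDR 2.95e-08) against P14 and -4.13 (SE 0.29, FDR 3.51e-08) against E15.5. It was called under every alternative run in these comparisons. Of the fits within a counting set, only that against P14 had more than 1 library in both groups. The 8 endothelial markers had a median log2 fold change of -3.57 against P7, -4.79 against P14 and 0.61 against E15.5. Against E15.5, all 7 GABAergic interneuron markers and 5 of 7 Purkinje cell markers were called lower. The part of these cells in the Jag2 differences was not tested.

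Notch3 had 3.17, 8.23 and 10.6 CPM in MB, with MB replicate 1 the lowest. Its log2 fold change was -2.62 (SE 0.40, edgeR FDR 1.22e-04) against P7, -3.25 (SE 0.41, FDR 1.34e-05) against P14 and -1.27 (SE 0.39, FDR 0.0130) against E15.5. These 3 comparisons were called under every alternative run. The value was -3.79 against P7 within the counting set that left MB replicate 1 alone, and -0.78 against E15.5 within the set that left E15.5 replicate 2 alone. In MB against P7, 8 of 8 endothelial markers and 7 of 10 mural markers were called lower, and their part in the Notch3 difference was not tested. Every MB library was also below every E15.5 library for Notch3. The summed endothelial level was 20.2 to 35.6 CPM in MB and 12.2 to 35.7 at E15.5, and the summed mural level was 60.1 to 77.3 CPM in MB and 23.6 to 44.4 at E15.5, with 4 of 10 mural markers called higher in MB. Their part in this difference was not tested.

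Notch1 had 14.1, 44.1 and 42.3 CPM in MB. Its log2 fold change was -1.43 (SE 0.37, edgeR FDR 0.00707) against P7 and -1.49 (SE 0.37, FDR 0.00353) against P14. The call against P7 ended when only MB and P7 were fitted (-1.39, FDR 0.0625), and within 1 counting set, with MB replicate 1 alone, the value was -2.63. Against E15.5 it was -0.47 (FDR 0.296), and the libraries overlapped. The same marker differences as for Notch3 lie beside the differences from P7 and P14.

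Notch2 differed from the other receptors. It had 71.3, 81.2 and 79.6 CPM in MB, within the span of the P7 and P14 libraries. Its log2 fold change was 0.18 (SE 0.25, edgeR FDR 0.632) against P7 and -0.04 (SE 0.25, FDR 0.911) against P14, so no difference was called. Against E15.5 it was 1.38 (SE 0.26, FDR 4.18e-04), with no overlap, and this call held under every alternative run.

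Dll1 had 2.10, 4.69 and 2.92 CPM in MB, below every library of every age. Its log2 fold change was -2.38 (SE 0.29, edgeR FDR 1.69e-05) against P7, -1.05 (SE 0.29, FDR 0.00661) against P14 and -4.12 (SE 0.31, FDR 7.68e-08) against E15.5. The difference from P14 was not called within 1 counting set (-0.78, FDR 0.0569). The summed GABAergic interneuron markers were 31.3 to 51.3 CPM in MB, also below every age, with Pax2 and Ptf1a at 0 in MB replicates 1 and 3. Their part in the Dll1 difference was not tested.

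Dner had 94.4, 78.8 and 89.9 CPM in MB, again below every other library. Its log2 fold change was -1.71 (SE 0.21, edgeR FDR 1.59e-05) against P7, -1.59 (SE 0.21, FDR 1.86e-05) against P14 and -2.15 (SE 0.21, FDR 9.79e-07) against E15.5. The summed Purkinje cell markers were 27.1 to 42.6 CPM in MB, below every age, with Skor2 at 0 in all MB libraries, and their part in the Dner difference was not tested.

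Jag1 and Dll3 were split among the MB libraries. Jag1 had 12.3, 41.3 and 77.9 CPM in MB replicates 1 to 3. Its log2 fold change against P7 was 1.45 (SE 0.43, edgeR FDR 0.0168), but replicate 1 lay below all 3 P7 libraries. The call ended without P7 replicate 2 (1.32), P7 replicate 3 (1.42) or MB replicate 3 (0.74), and when only MB and P7 were fitted (1.49). Within 1 counting set, which left MB replicate 1 alone, the direction turned to -0.34. Jag1 was not called against P14 (0.73, FDR 0.169), but it was called there without MB replicate 1 (1.17). It was called against E15.5 (1.80, SE 0.44, FDR 0.00313), although MB replicate 1 lay within the E15.5 range.

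Dll3 had 11.1, 31.0 and 35.9 CPM in MB. Every MB library was above every P14 library, with a log2 fold change of 1.98 (SE 0.42, edgeR FDR 0.00118) that was called under every alternative run. Against P7 it was 0.89 (FDR 0.108) and was not called, but it was called without MB replicate 1 (1.25). Against E15.5 it was 0.55 (FDR 0.277), and it was called without MB replicate 1 (0.91).

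Rbpj had 101, 47.1 and 25.4 CPM in MB, the widest spread of any group for that gene, and it was not called in any comparison, by the gene table or the transcript table. Without MB replicate 1 it was called lower than at P7 (-0.88), and without MB replicate 3 it was called higher than at P14 (0.86). Numb had 45.1, 56.2 and 57.3 CPM in MB and was not called against P7 or P14. It was higher than at E15.5 by 0.64 on the log2 scale (SE 0.17, edgeR FDR 0.00530), a call that ended when only these groups were fitted. MB replicate 1 was the lowest MB library for 8 of the 10 members and the highest for Rbpj and Dner.

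**Figure D3:**
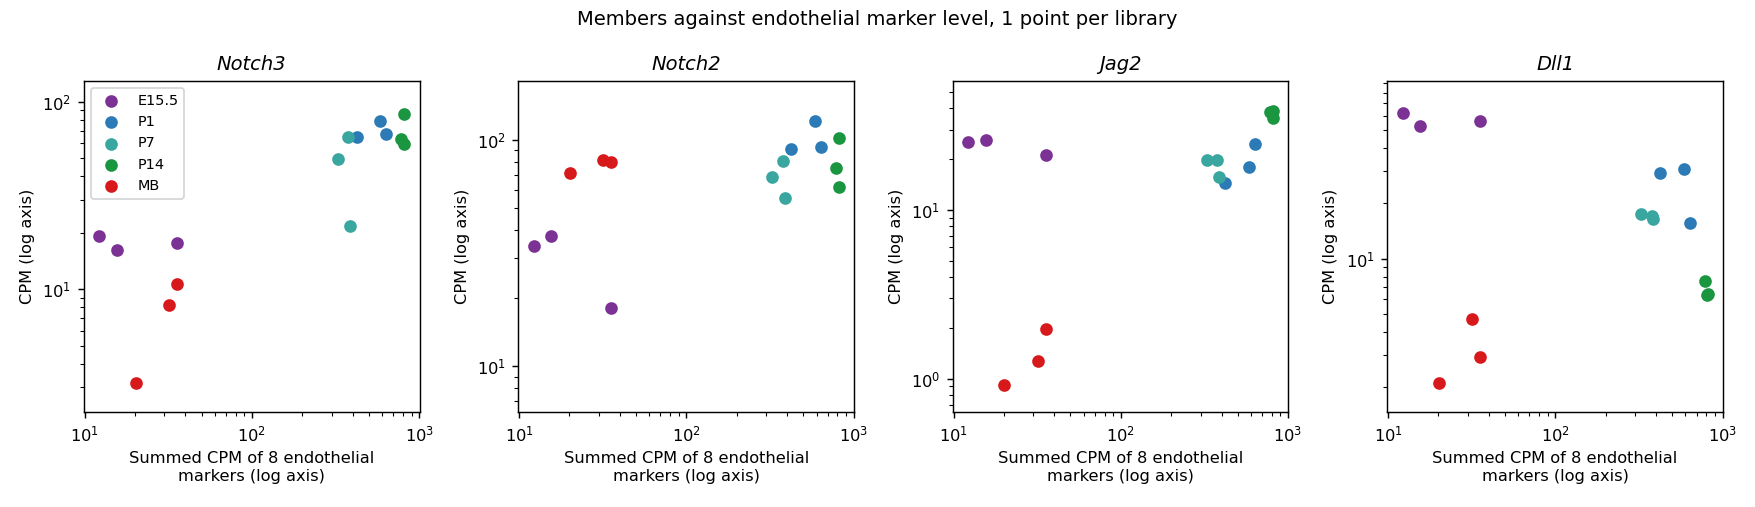
Level of Notch3, Notch2, Jag2 and Dll1 (CPM, log axis) against the summed level of 8 endothelial markers (CPM, log axis), 1 point per library, coloured by group. E15.5 and MB share the low end of the marker axis, and Notch2 is higher and Jag2 and Dll1 are lower in MB than at E15.5.

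The makeup of the receptor and ligand transcripts was compared per length, as each member's share of the summed CPM per kilobase within a library. These shares are a description with no test. Of the 3 receptors, Notch1 held 49.4% ± 1.01 (SD, n = 3) at E15.5, with 27.9% ± 5.65 for Notch2 and 22.7% ± 4.81 for Notch3. The receptors lay closer together after birth, with Notch1 at 40.2% ± 2.03 and Notch3 at 28.5% ± 1.03 at P1. In MB Notch2 held 64.2% ± 12.2 and Notch3 7.36% ± 2.69, and the lowest MB library (56.7%) had a higher Notch2 share than the highest library of any age (39.2%).

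Of the 4 canonical ligands among the members, Dll1 held 51.5% ± 0.74 (SD, n = 3) at E15.5, then 27.7% ± 4.77 at P1 and 27.5% ± 3.73 at P7, with 10.3% ± 0.72 at P14 and 5.73% ± 2.67 in the MB libraries. Dll3 held 30.1% ± 5.40 at P7. Jag2 held 50.2% ± 2.84 at P14 and 2.09% ± 0.87 in MB. There Dll3 held 54.3% ± 5.98 and Jag1 37.9% ± 9.16, and in MB replicate 3 Jag1 was the larger, with 48.0% against 47.5%. With Dll4, a ligand outside the members, added to the sum after the values were seen, Dll1 held 49.8% ± 0.65 at E15.5. Jag2 and Dll4 then lay close together at P14, with 33.6% ± 2.34 and 33.0% ± 1.10, and Dll4 was above Jag2 in 2 of the 3 libraries. In MB, Dll3 then held 35.7% ± 3.35, Dll4 33.7% ± 10.2 and Jag1 25.7% ± 9.78, and Dll4 was the largest in MB replicate 1. The sum of the 4 members in CPM per kilobase was 30.9 ± 2.87 at E15.5 and 18.3 ± 0.51 at P14, and the receptor sum was 9.94 ± 1.84 at E15.5 and 26.2 ± 6.42 at P14. In MB the sum of the 4 ligands ranged from 7.27 to 28.9 and the receptor sum from 8.67 to 13.4.

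**Figure D4:**
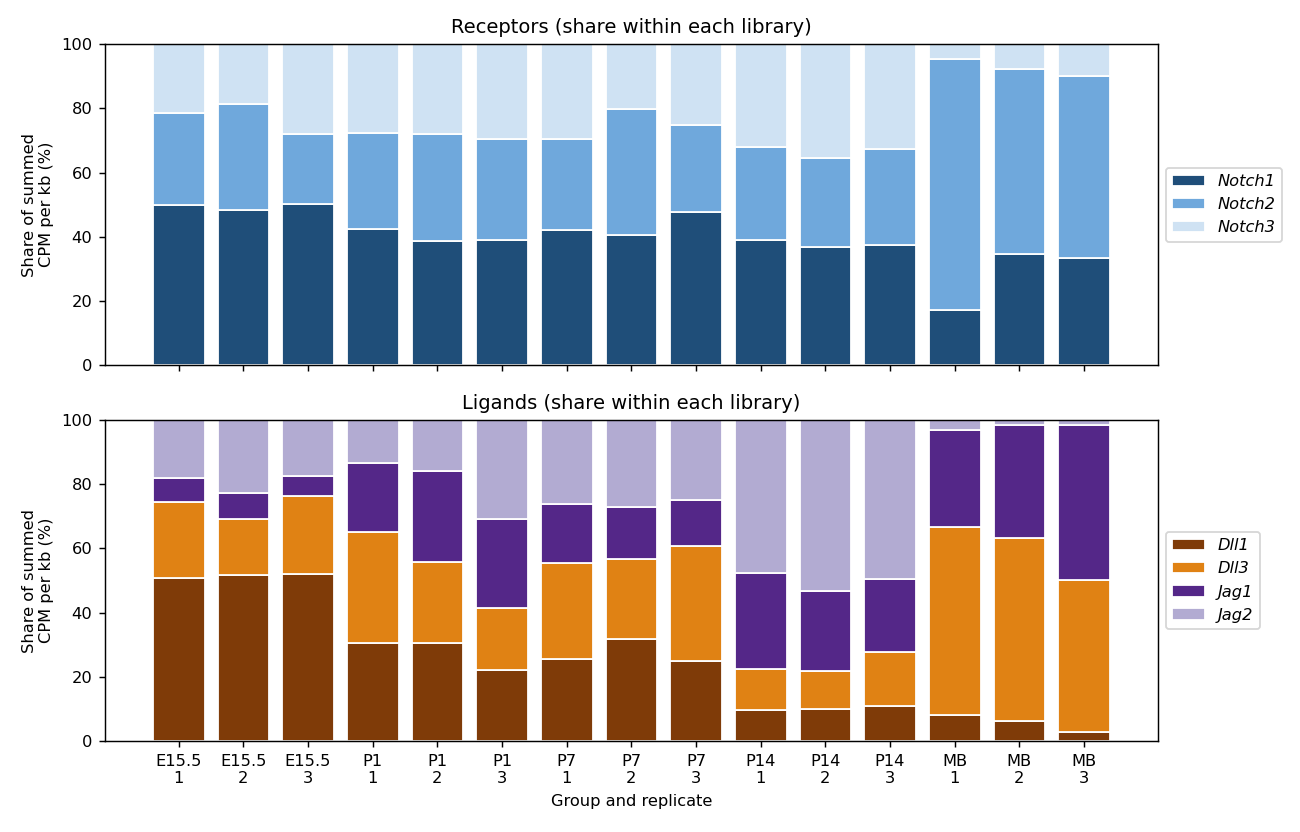
Share of each receptor (top) and each canonical ligand among the members (bottom) in the summed CPM per kilobase of its family, in percent, stacked for each library. Dll1 is the largest ligand share at E15.5, Jag2 at P14, and Dll3 and Jag1 fill most of the MB bars, where Notch2 is the largest receptor share.

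Other genes of the pathway were taken from a list of 43 by role, of which 42 were matched and tested. At P1 against E15.5, 15 were called higher and 9 lower, where 25.4% and 20.9% of all genes were, and the median log2 fold change was -0.01. All 6 target genes (Hes1, Hes5, Hey1, Hey2, Heyl and Nrarp) were called higher, with a median of 1.94. Hes1, a repressor of neuronal genes, had 1.96, 1.42 and 3.39 CPM at E15.5 and 17.8, 24.0 and 26.1 CPM at P1, a log2 fold change of 3.27 (SE 0.38, edgeR FDR 1.15e-05). Heyl rose by 3.02 (SE 0.35, FDR 9.32e-06). Hes1, Hes5 and Heyl are also expressed by glia or vascular cells, the lists of which were higher at P1 as given above, and the part of those cells was not tested.

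Lfng, a Fringe enzyme that adds sugar to receptors and changes which ligands they answer to, rose most among the 42, from 2.62, 2.17 and 7.72 CPM at E15.5 to 53.3, 53.6 and 45.4 CPM at P1 (3.55, SE 0.49, edgeR FDR 4.89e-05). Of the 5 glycosylation enzymes 2 were called higher and 2 lower. Of the 7 negative regulators or turnover genes 0 were called higher and 4 lower, all of them Deltex genes. Dtx1 gave -1.13 (SE 0.31, FDR 0.00878). Dlk2, a Delta-like protein without the receptor-binding domain of classical ligands, gave -2.32 (SE 0.32, FDR 5.07e-05). Of the 7 gamma-secretase subunits, which make the cut that frees the receptor fragment, 1 was called higher and 1 lower. The latter, Aph1b, gave -1.03 (SE 0.35, FDR 0.0247), a call that ended with the transcript table (-0.84) and without E15.5 replicate 2 (-0.94), P1 replicate 1 (-0.97) or P1 replicate 2 (-1.02).

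Between the postnatal ages few of the 42 were called. At P7 against P1 edgeR called 0, with 8 at an unadjusted p under 0.05 and 4 called by DESeq2. At P14 against P7 it called 3 higher and 1 lower, where 5.81% and 4.51% of all genes were. Dll4, a ligand best known from endothelium, rose by 1.28 on the log2 scale (SE 0.27, edgeR FDR 0.0135), Heyl by 1.11 (SE 0.31, FDR 0.0361) and Psen2 by 0.75 (SE 0.20, FDR 0.0313), while Hdac1 gave -1.12 (SE 0.30, FDR 0.0314). Each of these calls ended in several of the fits that left out 1 library, among them those without P7 replicate 2, P14 replicate 2 and P14 replicate 3, with values of 1.19 to 1.33 for Dll4 and 1.08 to 1.18 for Heyl there. The endothelial markers had a median log2 fold change of 1.04 in that comparison, with 1 of 8 called higher, and their part was not tested. At P14 against P1, Dll4 rose by 0.96 (SE 0.27, FDR 0.0409), Mfng gave -1.19 (SE 0.27, FDR 0.0165) and Hey1 gave -0.63 (SE 0.17, FDR 0.0378). These 3 calls ended without any single P1 or P14 library other than P1 replicate 3.

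In MB against P7, 8 of the 42 were called higher and 11 lower, where 13.7% and 20.7% of all genes were, with a median of 0.07. Dtx1, a Deltex ubiquitin ligase, had 153, 537 and 441 CPM in MB against 107, 83.4 and 91.1 CPM at P7 (2.00, SE 0.32, edgeR FDR 1.85e-04). Lfng gave 1.53 (SE 0.45, FDR 0.0146). Within 1 counting set, where MB replicate 1 stood alone, neither was called, with 0.75 for Dtx1 and 0.11 for Lfng. The call of Lfng also ended without P7 replicate 3 (1.43), MB replicate 2 (1.23) or MB replicate 3 (1.32). Dlk1 was lower by far in MB, with 0.0793, 0.415 and 0 CPM against 1.52, 2.76 and 3.77 CPM at P7 (-3.78, SE 0.67, FDR 4.50e-04). Dlk2 gave -2.70 (SE 0.36, FDR 3.45e-05) and Aph1b -2.28 (SE 0.36, FDR 1.74e-04).

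Of the target genes in MB against P7, Hey1 was called higher, at 0.98 (SE 0.17, edgeR FDR 4.23e-04), and Hey2 (-1.79) and Heyl (-1.15) lower, while Hes1 gave 0.90 (FDR 0.0544), Hes5 -0.04 (FDR 0.977) and the sixth, Nrarp, was not called. Hes5 was split among the MB libraries, with 0.674 CPM in replicate 1 and 21.1 and 18.0 CPM in the others. In MB against P14, 11 of the 42 were called higher and 13 lower, where 22.9% and 27.2% of all genes were. Dtx1 gave 2.28 (SE 0.32, FDR 3.92e-05) and Poglut1, which puts glucose on receptors, 1.11 (SE 0.16, FDR 4.08e-05). Dlk1 gave -4.98 (SE 0.68, FDR 2.92e-05), Dlk2 -3.16 (SE 0.36, FDR 5.32e-06) and Notch4, an endothelial receptor, -2.71 (SE 0.34, FDR 1.23e-05).

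In MB against E15.5, 16 were called higher and 8 lower, where 26.0% and 24.2% of all genes were. Lfng (4.37, SE 0.51, edgeR FDR 5.00e-06), Hes1 (3.94, SE 0.39, FDR 1.15e-06) and Dll4 (2.95, SE 0.29, FDR 1.14e-06) had the largest rises. Dlk1 gave -5.10 (SE 0.69, FDR 2.05e-05), Dlk2 -4.96 (SE 0.38, FDR 7.68e-08) and Aph1b -3.00 (SE 0.37, FDR 9.11e-06). Endothelial markers had 1 gene called higher and 1 lower of 8 in this comparison, while 7 of 10 astroglial markers and 9 of 9 microglial markers were called higher, and their part was not tested.

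For each member the genes with the most similar pattern were sought among 11576 genes that averaged 5 CPM or more, as the smallest root mean square difference between log2 CPM values centred at each gene's own mean over the 15 libraries. Notch1 was nearest to Atp7b (0.26) and Il17rd (0.34), Notch2 to Soat1 (0.23) and Ikzf2 (0.25), and Notch3 to AI464131 (0.31) and Fkbp10 (0.31). Among the ligands, Dll1 was nearest to Pcsk5 (0.28) and Pdgfc (0.32), Dll3 to BC030867 (0.30) and Tk1 (0.33), Jag1 to Apcdd1 (0.39) and Alpl (0.41), and Jag2 to Adamts2 (0.26) and Dok4 (0.32). Dner was nearest to Cyfip2 (0.21) and Nol4l (0.24), Rbpj to Spag9 (0.26) and Rev3l (0.26), and Numb to Mapk14 (0.12) and Ankrd27 (0.12). The median difference to all these genes was 0.52 for Numb, 0.67 for Rbpj and 1.78 for Jag2. A member that varied little thus had small differences to most genes, so the values do not rank likeness between members. No member was among the nearest genes of another. Pcsk5 had group means of 60.4, 32.1, 16.6, 7.21 and 3.34 CPM from E15.5 to P14 and MB, beside 56.8, 25.2, 17.0, 6.76 and 3.24 CPM for Dll1. Cyfip2 had 393, 171, 273, 236 and 80.3 CPM, beside 389, 196, 287, 264 and 87.7 CPM for Dner. Cell type marker levels differed between groups and also within them. The 5 choroid plexus markers summed to 403, 10416.5 and 3945 CPM in P1 replicates 1 to 3, and to 49.3, 518 and 2013 CPM in those of P7. Such likeness is therefore a description over these 15 libraries.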

How the data were processed

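Gene expression was taken from the raw read counts per Ensembl gene that the authors deposited for each library, whole numbers that are not normalized, of which 39.5% to 55.4% of all records lay in genes. The submitters' processing notes name Trimmomatic, TopHat, StringTie, HTSeq and the build mm9, without versions. The kit was TruSeq v2, and the strand setting is not given in the sources used here. Lines that name no gene were left out. Of 21889 genes, 20358 had a symbol in the reference tables. The test was edgeR 4.0.16 (R 4.3.3). Its filterByExpr, at a minimum count of 10 and a minimum total of 15, left 15259 genes with all 10 members among them. Scaling was by TMM, the model had 1 mean for each group of the 15 libraries (10 residual degrees of freedom), and each contrast had a quasi-likelihood F-test, Benjamini-Hochberg adjusted over all genes tested and called at an FDR under 0.05. CPM used the TMM-adjusted library size, and CPM per kilobase the exon length of the deposited transcript table, whose mm9 positions are printed 1-based. The log2 CPM of the pattern search had a prior count of 2. The script was tested on simulated data.

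The members and lists were chosen with earlier results of these data known. Pathway genes were named, at most 3 per direction and contrast, by the largest change among those called with a mean of at least 1 CPM, and for each member the 2 nearest genes were named. Target genes outside this rule were named after their values were seen. A gene that the rule names is not reported here. The alternatives were DESeq2 1.42.0, upper-quartile and DESeq2 scaling in edgeR, no filter, only the groups compared, both other deposited count tables, replicate number as a block, 1 library left out at a time, and libraries of 1 counting set. Depth was 12597472 to 43443132 counts in genes per library. Maml2 matched no gene of the table and was not analysed here. Promoter windows are from RefSeq (GRCm38.p6), a different build from the counts, and no coordinates were converted.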

Additional observations from a re-analysis of the deposited data

How the results depend on the processing

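Of the member counts over all alternatives, 109 stayed within 1.5 times the value reported and 14 did not. P7 against P1 went from 0 to 1 member without P1 replicate 3, and P14 against P7 from 2 to 5 when only those groups were fitted. When 1 library was left out, the count ranged over 5 to 6 at P1 against E15.5, 0 to 1 at P7 against P1, 0 to 2 at P14 against P7, 1 to 4 at P14 against P1, 5 to 8 in MB against P7, 6 to 7 in MB against P14, 7 to 8 in MB against E15.5 and 5 to 8 for the 4 ages. Over all genes, the same fits called 5666 to 6890 at P1 against E15.5 and 7248 to 8518 for the 4 ages. They called 4387 to 5846 genes in MB against P7, 6462 to 7794 in MB against P14 and 7005 to 7637 in MB against E15.5. Calls at P7 against P1 ranged from 9 to 888, at P14 against P7 from 125 to 1077 and at P14 against P1 from 154 to 2714. The members' postnatal calls thus rest on a background that 1 library moves.

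Of 30 same-numbered pairs of libraries, 7 correlated above 0.1, with a range of -0.31 to 0.33. Pairs with different numbers ranged from -0.48 to 0.47. The values were centred within groups of 3, so these correlations do not settle whether the replicate numbers pair the samples. With replicate number as a block, the member counts stayed within 1.5 times. Dll3 was no longer called at P14 against P1 (-1.45, FDR 0.0563 by edgeR), nor Notch1 among the 4 ages (FDR 0.0609), nor Heyl (1.11, FDR 0.0525) and Hdac1 (-1.10, FDR 0.0516) at P14 against P7, nor Hey1 at P14 against P1 (-0.63, FDR 0.0527).

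Of the single-gene values, 30 turned their direction, and the cause was not tested. Dll3 at P1 against E15.5, reported at -0.02, was 0.13 with upper-quartile scaling, 0.023 with the replicate block, 0.0014 with only the groups compared, 0.43 within 1 counting set and -0.32 to 0.26 with 1 library left out. Jag2 at P7 against P1 was -0.21 to 0.18 with 1 library left out. At P14 against P7, Numb was -0.0018 with the TSS model table, -0.0063 with the transcript table and -0.086 to 0.066 with 1 library left out, and under the same fits Dner was -0.25 to 0.035 and Notch1 -0.22 to 0.23. Notch3 at P14 against P1 was 5.6e-05 with no filter and -0.19 to 0.093 with 1 library left out. In MB against P7, 1 counting set gave 0.64 for Rbpj, -0.29 for Dll3 and -0.34 for Jag1, and Rbpj was -0.88 to 0.14 with 1 library left out. In MB against P14, Notch2 was 0.044 within 1 counting set and -0.19 to 0.17 with 1 library left out, and Rbpj was -0.13 and -0.17 to 0.86. In MB against E15.5, Rbpj was -0.56 within 1 set and -0.44 to 0.58 with 1 library left out. Of these, the value reported for Jag1 in MB against P7 was called, and the others were not. Upper-quartile scaling moved the median of all genes by 0.14 at P1 against E15.5, where it added a call for Numb (0.46), by -0.10 at P7 against P1 and by -0.14 in MB against P14. The TSS model table could not be matched for Notch1 and Dner, and no fit within a counting set could be made for P7 against P1 or P14 against P7. With 124 reads of Jag2 in MB and 318 of Dll1, depth limits the precision of those levels.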
